A study of Mus musculus with 8 samples.

Results

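Apoptosis and p53 genes were followed as a set of 48 genes among the 24063 gene symbols in the deposited RNA-Seq tables. The genes are given by name, with no measured value in the rule, and belong to 4 lists. The pro-survival list held 9 genes, the pro-death list 20, the caspase list 6, and the list of p53, its MDM regulators and its targets 13. RNA-Seq was performed on 8 cultures of mouse tubuloids, which are tubule-like and spheroid structures grown between layers of Matrigel from kidney tubule fragments. The fragments came from mice 7 to 10 days after birth of the genotype Pkd2fl/fl Pax8rtTA TetOCre mTmG. 4 cultures, numbered 6, 12, 17 and 22, received a 24 h pulse of GDNF (glial cell line-derived neurotrophic factor, the ligand of the Ret receptor), and 4 control cultures, numbered 3, 7, 14 and 21, received the same growth factor medium without it. All 8 were harvested on day 7 of culture, after the pulsed cultures had gone back to medium without GDNF. All carried the floxed Pkd2 alleles, a Cre whose expression needs doxycycline in cells with an active Pax8 promoter, and a membrane reporter, and the labels name no doxycycline for either group. The comparison asks what had changed in RNA levels by harvest after an early exposure to GDNF. Each culture is 1 library, and where the cultures share animals was not given in the sources used here, so the p-values measure the spread between these 8 libraries.

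Mitochondrial apoptosis is decided among proteins of the BCL2 family. Guardians such as Mcl1, Bcl2 and Bcl2l1 hold the pore formers Bax and Bak1 in check, BH3-only proteins relieve that restraint, and the released cytochrome c assembles Apaf1 and caspase-9 into the apoptosome, which starts the executioner caspases. Death receptors such as Fas reach the caspases by another route, through Fadd and caspase-8. p53 switches on several of these genes together with cell cycle and stress genes such as Cdkn1a, and Mdm2 marks p53 for destruction while being a p53 target itself. In kidney tubules, p53 and BCL2 family genes are known for their part in the loss of tubule cells after injury, and the guardian Bcl2 is needed for kidney development.

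The p53 protein binds a decamer, a motif of 10 bases, usually as a pair of decamers. The promoter windows of RefSeq on the mouse build GRCm38.p6 span 250 bases before to 50 bases after an annotated start of a gene. They were searched for the p53 decamer, which reads the same on both strands, with overlapping matches counted. A gene can have several starts, with 32851 windows for 27025 genes, and it counted when any of its windows held a decamer. A window was at hand for 41 of the 48 genes. The windows of 9 of the 41 genes held a decamer, against 9.55% of the 27025 genes with a window, and 6 of the 9 were among the 10 genes of the p53 list that had one. The sequences below, 5′ to 3′ on the gene's strand with the decamers in capitals, are shown because they cover the 6 genes of the p53 list with a decamer, and Bax, the gene with the highest level. Of the other 2 genes with a decamer, Bmf and Birc2, no sequence is shown.

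Cdkn1a: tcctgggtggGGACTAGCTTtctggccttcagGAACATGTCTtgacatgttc
Ccng1: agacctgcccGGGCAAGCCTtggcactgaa
Mdm2: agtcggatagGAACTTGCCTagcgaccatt
Trp53: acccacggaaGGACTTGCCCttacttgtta
Aen: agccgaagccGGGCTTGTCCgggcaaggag
Sesn1: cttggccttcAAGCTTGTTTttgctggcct
Bax: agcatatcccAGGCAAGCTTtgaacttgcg

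The Cdkn1a stretch lies at chr17:29090896-29090947 on the plus strand, and its capitals begin 73 and 51 bases before the start. The pair of decamers in it was the only one with a spacer of at most 13 bases among the 41 genes, and 0.074% of all genes had such a pair in their window. The other stretches lie at chr11:40755452-40755481 for Ccng1, chr10:117710925-117710954 for Mdm2 and chr7:45467080-45467109 for Bax, all on the minus strand. Those on the plus strand lie at chr11:69580274-69580303 for Trp53, chr7:78895927-78895956 for Aen and chr10:41887256-41887285 for Sesn1. The Aen and Sesn1 stretches lie inside the annotated span of their gene, before a later start. A match to these letters is a description of the window and not a measured binding site.

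Before the genes themselves, the libraries have to be described, since several do not look alike. Total counts over transcripts ranged from 72991721 to 97490625, and log2 expression correlated between any pair of cultures at 0.968 to 0.994. Control culture 3 stood apart in composition: its TMM factor, edgeR's correction for a few abundant genes that take up reads, was 0.790, whereas the other controls lay between 0.963 and 0.982 and the GDNF cultures between 1.07 and 1.11. Transcripts of up to 2437 bases took 52.6 to 64.1% of the counts in the controls, with control 3 the highest, and 45.8 to 52.0% in the GDNF cultures, so this share did not overlap between the groups. All 8 markers of tubule epithelium that were examined were detected in every culture. Their summed level was 4179 CPM (counts scaled to the TMM-corrected library size) in control 3 and 4141 CPM in control 21. It was 642 and 1674 CPM in the other controls, and 1158 to 2216 CPM in the GDNF cultures. Keratins carried much of the sum, with Krt8 and Krt18 at 1041 and 1074 CPM in control 3 and 1315 and 1216 CPM in control 21. Cdh16 and Pax8 were instead highest in GDNF 6, at 557 and 151 CPM, so the sum is no measure of the amount of epithelium. Stroma markers summed to 572 to 3715 CPM in the controls and 482 to 2577 CPM after GDNF, endothelium markers to 65.0 to 173 and 63.7 to 160 CPM, and immune markers to 9.26 to 30.1 and 11.6 to 31.9 CPM, with Cd3e at 0 counts in all cultures, Adgre1 at 0 in 5, and the endothelial Cdh5 and Tek at 0 in control 3. Emcn and Plvap carried most of the endothelium sum, and Pecam1, Cdh5, Kdr and Tek reached at most 7.30, 1.24, 1.78 and 1.82 CPM. By the stroma markers, the cultures therefore held other cells beside epithelium. In such bulk samples, fewer cells of a type and less RNA per cell cannot be told apart.

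Of the 48 genes, 46 had a mean level of at least 1 TPM (transcript abundance scaled by length, for the most abundant transcript), and 5 reached 100 TPM. The highest was Bax, the pore former, at 356 ± 74.3 TPM in controls and 392 ± 67.4 TPM after GDNF (SD, n = 4 each). The p53 targets Ccng1 (cyclin G1), Cdkn1a (the cell cycle inhibitor p21) and Phlda3 (an inhibitor of Akt) followed with means over all 8 cultures of 185, 181 and 150 TPM. Mcl1, the most abundant guardian, averaged 130 TPM and the next guardian, Bcl2l1, 47.3 TPM. Bok, a pore former that the guardians do not restrain, averaged 69.7 TPM, and Bak1, the usual partner of Bax, only 1.09 TPM. Among the caspases, Casp6, an executioner, was the highest at 42.8 TPM, followed by Casp8, the death receptor caspase, at 35.2 TPM. Casp9, the apoptosome caspase, was at 7.40 TPM and the inflammatory Casp1 at 1.94 TPM. Pmaip1 (Noxa) at 44.4 TPM and Bad at 53.1 TPM were the BH3-only genes with the highest levels. These ranks are those of single transcripts. A read shared by transcripts of 1 gene is counted for each, and with TPM summed over transcripts 16 genes moved by over 1.5 times and 10 genes reached 100 TPM. Bcl2l1 then came to 186 TPM and stood above Mcl1, Casp8 to 106 TPM and stood above Casp6, and Bcl2l11 to 76.3 TPM, above Pmaip1 and below Bad at 130 TPM. Cdkn1a, Trp53 and Mdm2 came to 356, 144 and 173 TPM, and Bax remained the highest.

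**Figure D1:**
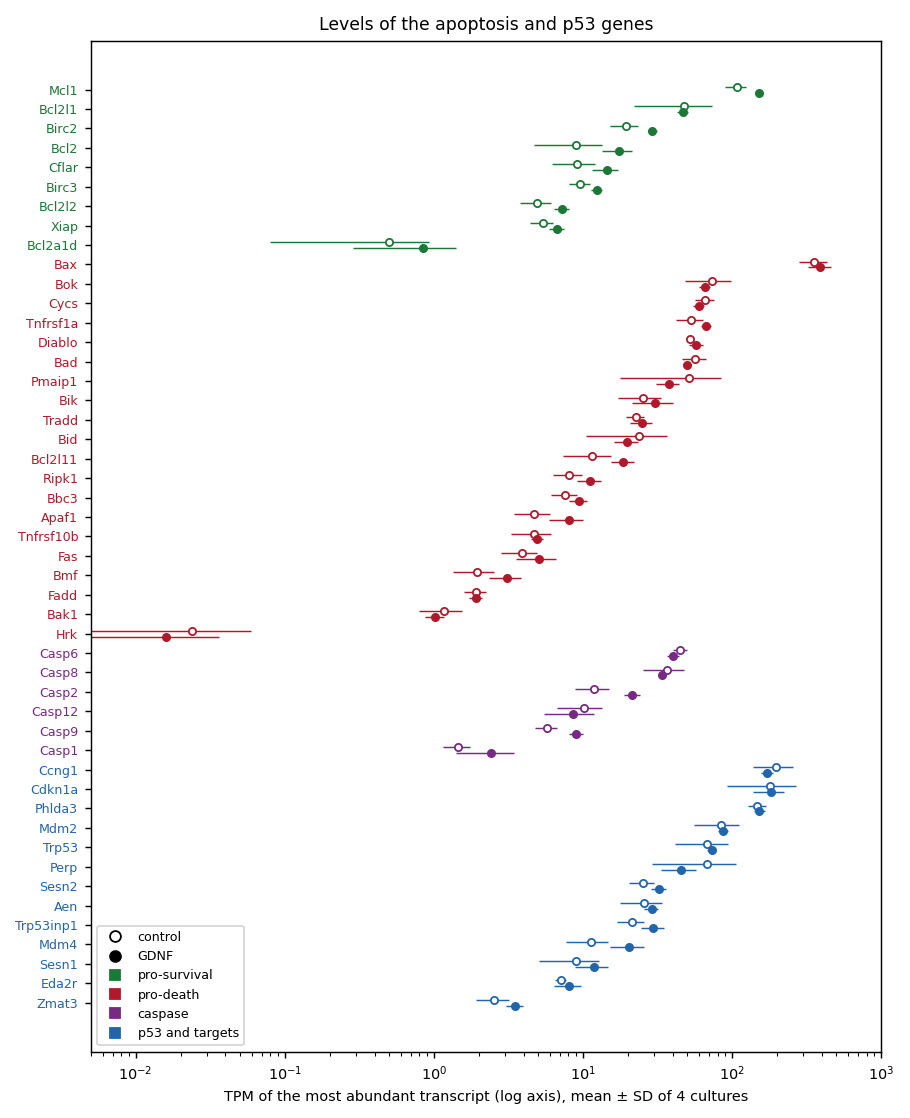
Mean level of each of the 48 genes in TPM of its most abundant transcript (log axis), with SD over 4 cultures, for control (open) and GDNF (filled) cultures, coloured by list; an SD bar that would pass below the axis is clipped. Bax has the highest level, at a mean of 374 TPM over the 8 cultures, and Hrk the lowest, at 0.0200 TPM.

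The lowest 2 genes could hardly be measured. Hrk, a BH3-only gene known mainly from neurons, had 7, 24, 0 and 0 counts in control cultures 3, 7, 14 and 21 and 12, 2, 3 and 0 counts in GDNF cultures 6, 12, 17 and 22. It did not pass the filter on low counts and was not tested, which left 47 genes. Bcl2a1d, a guardian of blood cells with near-identical neighbouring copies among which reads may be split, had 31, 49, 3 and 11 counts in the controls and 22, 14, 63 and 26 after GDNF. Its groups overlapped widely, and its log2 fold change of 0.29 ± 0.80 had an SE above its size. Every other gene had at least 67 counts in each culture.

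In edgeR's quasi-likelihood test, none of the 47 genes and none of all 16557 genes tested passed a Benjamini-Hochberg adjusted p of 0.05 (0.0%), and the smallest adjusted p of any gene was 0.167. At an unadjusted p of 0.05, 9 of the 47 genes (19.1%) passed, beside 22.1% of all genes tested. 2 of them, Casp2 and Mdm4, were higher after GDNF (background 9.25%), and 7, Bok, Bad, Cycs, Casp6, Casp8, Ccng1 and Perp, were lower (background 12.9%). The share of passing genes among the apoptosis and p53 genes thus lay near that of all genes. DESeq2, which uses another spread estimate, called 4 of the 47 genes at an adjusted p of 0.05 (8.51%), beside 8.13% of all genes, and limma-voom called none. DESeq2 gave no adjusted p to 9 of the 47 genes and to 7387 of the 16557. Those genes could not be called and are counted in both shares as not called, so the shares are not a comparison of callable genes. In 4 genes (8.51%) the values of the groups did not overlap, beside 13.2% of all genes. Those were Mcl1 and Casp2, higher after GDNF, and Cycs and Fadd, lower. The mean was lower after GDNF in 29 of the 47 genes (61.7%), beside 47.5% of all genes.

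**Figure D2:**
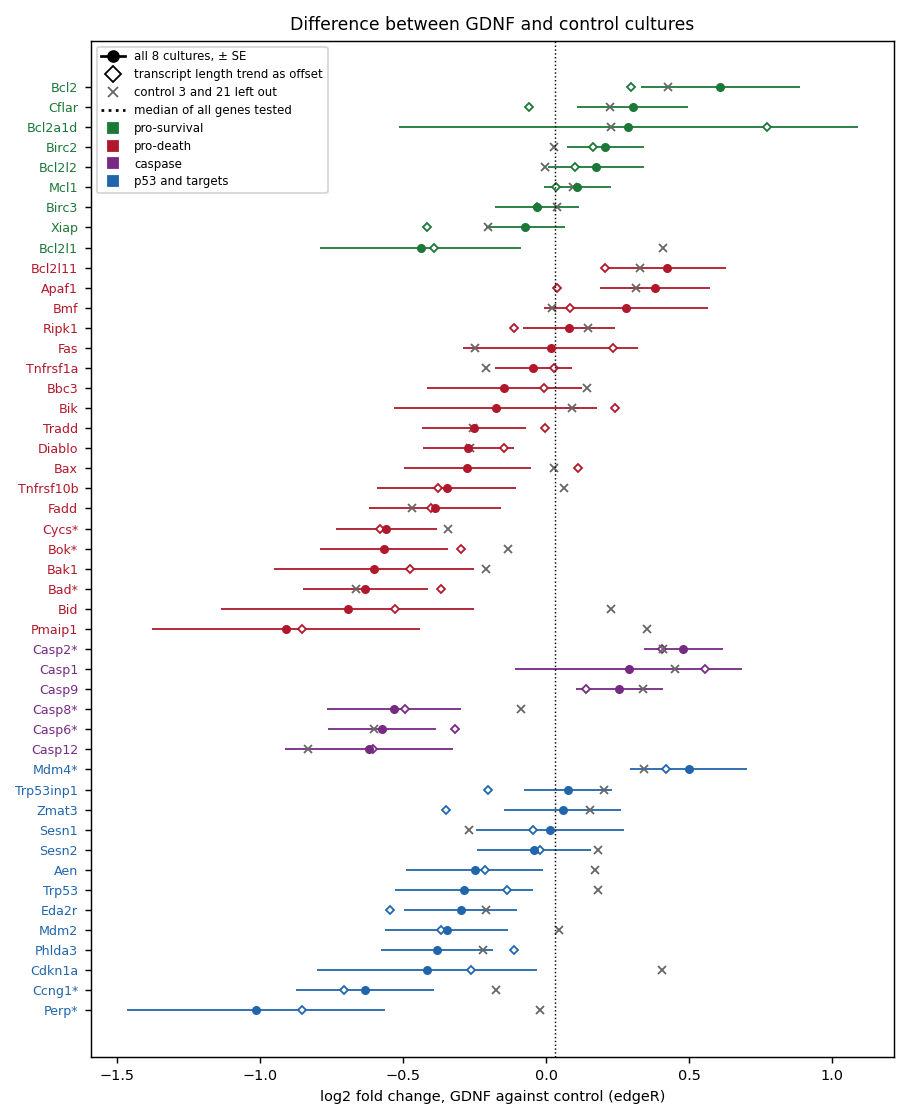
Log2 fold change of the 47 tested genes, GDNF against control, with the SE of the edgeR fit (filled circles), the fold change with the transcript length trend as an offset (diamonds) and the one without control cultures 3 and 21 (crosses); asterisks mark an unadjusted p of 0.05 or less. Casp2, Cycs, Bad and Casp6 keep their side of 0 in all fits drawn and stay apart from it, whereas Perp, Pmaip1, Cdkn1a and Bid move toward or past 0 when the 2 controls are left out.

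Among the guardians of the BCL2 family, Mcl1 was higher in every GDNF culture than in any control, by a small margin. Its values were 254, 243, 233 and 254 CPM in control cultures 3, 7, 14 and 21 and 272, 256, 262 and 271 CPM in GDNF cultures 6, 12, 17 and 22. The log2 fold change was 0.11 ± 0.12 (SE) with an adjusted edgeR p of 0.603, so that the gap, though without overlap, was small beside the spread the model assumes for such a gene. Bcl2 had the largest value of the list, 0.61 ± 0.28, and its adjusted edgeR p was 0.231. Control 3 was the lowest culture for Bcl2 at 41.3 CPM and GDNF 22 the highest at 144 CPM. Bcl2l1 (Bcl-xL) showed the reverse order: control cultures 3 and 21 had 430 and 412 CPM, the other 6 cultures between 128 and 224 CPM, and the log2 fold change of -0.44 ± 0.35 turned to 0.41 without those 2 controls. Bcl2l2 stood at 0.17 ± 0.17.

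The 4 inhibitors of caspases and of death receptor signalling did not pass an unadjusted p of 0.05. Birc2 and Birc3, ubiquitin ligases of the TNF receptor complex, had log2 fold changes of 0.21 ± 0.13 and -0.03 ± 0.15, and Xiap, which blocks caspases directly, had -0.07 ± 0.14. Cflar, the decoy of caspase-8, stood at 0.30 ± 0.19. These values moved with the processing: Xiap was at -0.42 with the length offset, with an unadjusted edgeR p of 0.0213, and with library size only Cflar was at 0.50 and Birc2 at 0.42, the latter with an unadjusted edgeR p of 0.0223. In the fit of all cultures, none of the 9 pro-survival genes reached an unadjusted p of 0.05. Their median log2 fold change was 0.17, beside 0.033 for all genes tested.

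Of the pore formers, only Bok reached an unadjusted p of 0.05. Its values were 89.8, 50.7, 48.5 and 90.7 CPM in control cultures 3, 7, 14 and 21, and 46.2, 44.6, 49.4 and 48.8 CPM after GDNF. Control cultures 7 and 14 lay near the level of the GDNF cultures, and controls 3 and 21 were far higher. Its log2 fold change was -0.57 ± 0.22 (edgeR adjusted p = 0.193), and it was -0.13 without those 2 controls. Bax was at 283, 155, 167 and 226 CPM in the controls and at 224, 148, 148 and 167 CPM after GDNF. Its groups overlapped and the log2 fold change was -0.28 ± 0.22. On the TPM scale the mean of Bax was the higher one after GDNF, as given above. Bak1 had -0.60 ± 0.35. The ratio of summed pore former TPM to summed guardian TPM was 3.05, 2.13, 2.55 and 2.50 in the controls and 2.53, 1.86, 1.90 and 1.93 after GDNF. This ratio overlapped between the groups, with GDNF culture 6 among the controls. With TPM summed over transcripts, added after the data were seen, it was 1.43, 1.20, 1.59 and 1.16 in the controls and 1.41, 1.02, 1.09 and 1.04 after GDNF, and overlapped likewise.

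Among the BH3-only genes, Bad was the one with an unadjusted p below 0.05. Bad, which growth factor signalling holds inactive by phosphorylation, had 152, 93.8, 119 and 71.0 CPM in control cultures 3, 7, 14 and 21 and 79.5, 65.6, 71.1 and 64.6 CPM after GDNF. Control 21 lay within the range of the GDNF cultures and the other controls above all of them. The log2 fold change was -0.63 ± 0.22 (edgeR adjusted p = 0.169, DESeq2 adjusted p = 0.0448). Without any 1 culture its p stayed between 0.000828 and 0.0428, and without controls 3 and 21 together the change was -0.66. Of the tested BH3-only genes, the most variable among the controls was Pmaip1, a p53-inducible sensitizer, with 169, 44.4, 30.4 and 131 CPM in the controls and 40.1, 53.9, 50.3 and 55.1 CPM after GDNF, and it is named here because of these values. Controls 3 and 21 were far above and controls 7 and 14 near or below the GDNF cultures, which gave a log2 fold change of -0.91 ± 0.47 that turned to 0.35 without those controls. Bid, cut by caspase-8 to join the receptor and mitochondrial routes, behaved alike with -0.69 ± 0.44 and 0.23. In the other direction, Bcl2l11 (Bim) had 0.42 ± 0.21 with an adjusted edgeR p of 0.253. The ratio of Bcl2l11 to Pmaip1 in CPM, which is not scaled by length, was 0.569, 3.56, 4.12 and 1.33 in the controls. It ranged from 3.58 to 3.94 after GDNF. Controls 7 and 14 were thus near the GDNF cultures, and the low ratios were those of controls 3 and 21, where Pmaip1 was highest. The size of the ratio does not rank the 2 genes, since a shared read counts for each of the 5 transcripts of Bcl2l11, while Pmaip1 has 1. Over all cultures Bcl2l11 averaged 15.1 TPM for its most abundant transcript and 76.3 TPM summed, and Pmaip1 44.4 TPM. Bbc3 (Puma), Bik and Bmf had changes of -0.15, -0.18 and 0.28, each smaller than its SE.

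Among the genes that act after the mitochondrial pore opens, Cycs (cytochrome c) had the smallest p of the pro-death list. Cycs had 180, 111, 112 and 138 CPM in control cultures 3, 7, 14 and 21 and 97.5, 80.9, 99.2 and 89.9 CPM after GDNF. All GDNF cultures lay below all controls. Its log2 fold change was -0.56 ± 0.18 (edgeR adjusted p = 0.167, DESeq2 adjusted p = 0.0347), and without controls 3 and 21 it was -0.34 with an unadjusted p of 0.0212. Cycs also serves the respiratory chain in living cells and has processed pseudogenes that could share its reads. Apaf1, which cytochrome c assembles, had 0.38 ± 0.19, and Diablo (Smac), which frees caspases from Xiap, had -0.27 ± 0.16, both above an unadjusted p of 0.05 by edgeR.

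None of the 6 death receptor genes reached an unadjusted p of 0.05. Fadd, the adaptor of Fas, did not overlap between groups, with 3.91, 3.16, 4.21 and 3.27 CPM in the controls and 2.96, 2.86, 3.04 and 2.25 CPM after GDNF; its log2 fold change was -0.39 ± 0.23 (edgeR adjusted p = 0.337). The receptors Fas and Tnfrsf1a and the kinase Ripk1 had changes of 0.02, -0.04 and 0.08. Tnfrsf10b, the mouse TRAIL receptor, had -0.35 ± 0.24 and Tradd, the adaptor of Tnfrsf1a, -0.25 ± 0.18. The median over the 19 tested pro-death genes was -0.27, with 5 means higher and 14 lower after GDNF.

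The caspases split, with 3 higher and 3 lower means after GDNF. Casp2, an initiator caspase that can be activated in the p53-induced PIDD complex, had 22.8, 27.2, 26.5 and 30.3 CPM in control cultures 3, 7, 14 and 21 and 33.6, 35.5, 40.6 and 39.2 CPM after GDNF. Every GDNF culture lay above every control. The log2 fold change was 0.48 ± 0.14 (edgeR adjusted p = 0.167, DESeq2 adjusted p = 0.0426). The unadjusted p was 0.00632 to 0.0237 with each culture left out, 0.00613 with the length offset, 0.00278 with library size only and 0.0234 without controls 3 and 21. Pidd1, the platform of that complex and itself a p53 target, was picked from a wider list after its value was seen. Its log2 fold change of 0.47 ± 0.19 passed the same unadjusted threshold by edgeR, as did 22.1% of all genes tested. Its groups overlapped, with 13.3 to 19.6 CPM in the controls and 17.1 to 27.2 CPM after GDNF. With each culture left out, its unadjusted edgeR p was 0.0173 to 0.116.

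Casp6 had 57.7, 40.6, 45.5 and 32.9 CPM in the controls and 33.4, 30.1, 30.8 and 24.2 CPM after GDNF. Control 21 and GDNF 6 were nearly level, and all other cultures kept their group's side. The log2 fold change was -0.58 ± 0.19 (edgeR adjusted p = 0.167, DESeq2 adjusted p = 0.0407), and it was -0.60 without controls 3 and 21. Casp8 had 257, 137, 123 and 223 CPM in the controls and 138, 134, 120 and 118 CPM after GDNF. Here controls 3 and 21 alone stood clear of the rest, and the log2 fold change of -0.53 ± 0.23 (edgeR adjusted p = 0.220) became -0.09 without them. Casp9 stood at 0.26 ± 0.15 and Casp1 at 0.29 ± 0.40. Casp12, a caspase of the endoplasmic reticulum, stood at -0.62 ± 0.29 with control 14 highest at 24.3 CPM and GDNF 6 lowest at 6.17 CPM.

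Trp53 itself was at 210, 118, 113 and 229 CPM in control cultures 3, 7, 14 and 21 and at 152, 124, 147 and 126 CPM after GDNF. The GDNF cultures lay between the lower and the higher pair of controls, and the log2 fold change was -0.29 ± 0.24 (edgeR adjusted p = 0.492). Mdm2 followed the same layout with 429, 249, 252 and 444 CPM in the controls and 279, 255, 261 and 284 CPM after GDNF, and a change of -0.35 ± 0.21 (edgeR adjusted p = 0.353). Mdm4, the partner of Mdm2 that holds p53 inactive, was laid out otherwise, with 18.5, 28.0, 25.9 and 28.5 CPM in the controls and 24.4, 38.2, 37.8 and 42.1 CPM after GDNF. 3 GDNF cultures exceeded all controls, while GDNF 6 lay within them. Its log2 fold change was 0.50 ± 0.20 (edgeR adjusted p = 0.202).

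Among the targets of p53, Cdkn1a had 763, 299, 203 and 595 CPM in the controls and 486, 345, 260 and 301 CPM after GDNF. Its groups overlapped, with controls 3 and 21 above every GDNF culture and control 14 below every one. The log2 fold change was -0.42 ± 0.38 (edgeR adjusted p = 0.537), and 0.40 without controls 3 and 21. Ccng1 had 665, 303, 345 and 548 CPM in the controls and 305, 274, 301 and 319 CPM after GDNF. Controls 3, 14 and 21 were above all GDNF cultures, and control 7 was among them. The change was -0.63 ± 0.24 (edgeR adjusted p = 0.186), -0.71 with the length offset and -0.18 without controls 3 and 21. Perp, a desmosome protein that p53 induces, had the largest change of the set, -1.01 ± 0.45 (edgeR adjusted p = 0.223). Its values were 152, 56.2, 28.3 and 116 CPM in the controls and 64.0, 36.4, 34.4 and 40.0 CPM after GDNF, and its change was -0.02 without controls 3 and 21.

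The remaining targets had smaller values, none at an unadjusted p of 0.05. Phlda3 had -0.38 ± 0.20, Eda2r, a death receptor of the TNF family, -0.30 ± 0.20, and Aen, a nuclease, -0.25 ± 0.24. The stress-response sestrins Sesn1 and Sesn2 had 0.01 and -0.04, the RNA-binding Zmat3 0.06 and Trp53inp1 0.08. Over the 13 genes the median was -0.29, with 4 means higher and 9 lower. At an unadjusted edgeR p of 0.05, 1 was higher and 2 lower (23.1%), near the 22.1% of all genes tested.

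**Figure D3:**
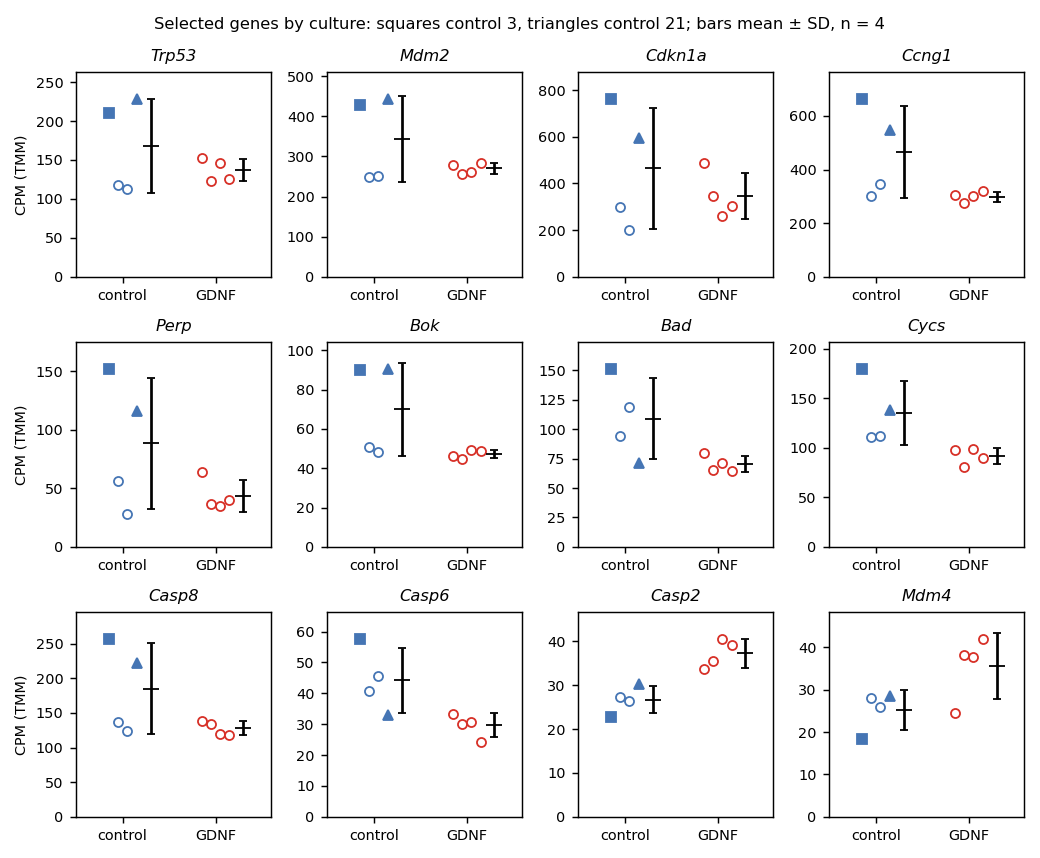
CPM (TMM-scaled, axes from 0) of 12 genes in each culture, with mean ± SD of the 4 cultures of a group; squares mark control 3 and triangles control 21. In Trp53, Mdm2, Cdkn1a, Ccng1, Perp, Bok, Cycs and Casp8 those 2 controls are the highest cultures, while in Casp2 all 4 GDNF cultures lie above the controls.

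The layout of Bok, Casp8, Trp53, Mdm2, Cdkn1a, Ccng1 and Perp was shared by other genes of the set. Control cultures 3 and 21 were the 2 highest of the 8 for 16 of the 47 genes (34.0%), beside 12.3% of all genes tested. The 16 were 2 pro-survival genes (Bcl2l1 and Birc3), 7 pro-death genes (Bax, Bak1, Bok, Bid, Pmaip1, Cycs and Tnfrsf10b), 1 caspase (Casp8) and 6 of the p53 list (Trp53, Mdm2, Cdkn1a, Ccng1, Aen and Perp). This layout was noticed after the values were seen, and the 2 cultures carry the same label as the other controls. It cut across the kinds of culture, since control 3 had more Xist RNA and control 21 more RNA of Y-linked genes. The same 2 cultures were the highest for 5 of the 8 tubule epithelium markers, for 4 of the 6 cycling cell markers and for none of the stroma, endothelium or immune markers that were tested. Cycling markers summed to 324 and 401 CPM in controls 3 and 21 and to 212 to 269 CPM in the other 6 cultures. The part of these cells in the levels of the apoptosis and p53 genes was not tested.

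The genes with a p53 decamer in their window and those without could be set side by side in this respect. Controls 3 and 21 were the highest for 6 of the 9 genes with a decamer (66.7%), namely Cdkn1a, Ccng1, Mdm2, Trp53, Aen and Bax, whose sequences are printed above. They were the highest for 7 of the 31 tested genes whose window held none (22.6%). Over all genes tested with a window, the shares were 13.1% of 1015 genes with a decamer and 12.8% of 10913 without. The layout was noticed in the genes of this same set, and 6 of the 9 with a decamer belong to the p53 list. The shares within the set are therefore a description, and a role of p53 in them was not tested.

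**Figure D4:**
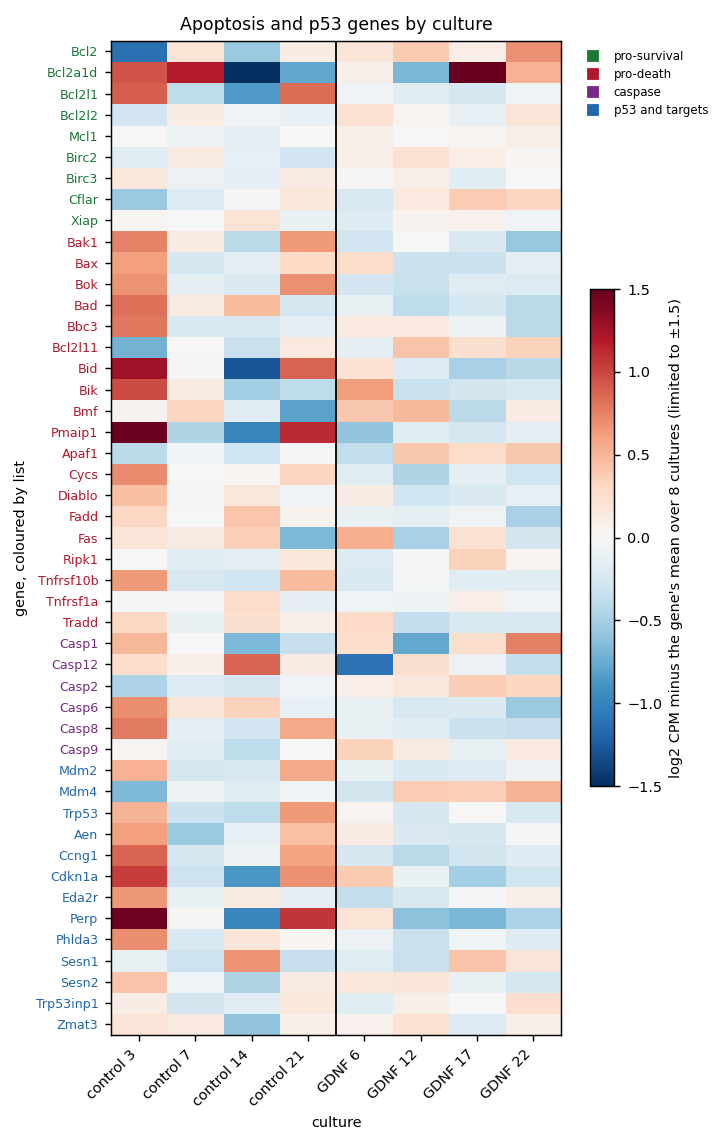
Log2 CPM of the 47 tested genes in each culture minus the gene's mean over the 8 cultures (colour limited to ±1.5), with rows grouped by list and a line between control and GDNF cultures. Columns control 3 and control 21 are red for much of the pro-death and p53 rows, and the 4 GDNF columns are paler than the controls.

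The controls also differed among themselves more than the GDNF cultures did. The median coefficient of variation over the tested genes was 28.1% in the controls and 13.2% after GDNF, and it was larger in the controls for 39 of the 47 genes. For all genes tested the medians were 26.1% and 18.4%, and 70.4% of them varied more in the controls. Mdm2 varied by 31.3% in the controls and 5.15% after GDNF, Bok by 33.6% and 4.78%, and Bcl2l1 by 54.5% and 6.95%. Apaf1, Fas, Tradd and Mdm4 were among the 8 genes with the larger variation after GDNF.

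When control cultures 3 and 21 were left out, an alternative chosen after the data were seen that leaves 2 controls, 2 genes were higher and 3 lower at an unadjusted p of 0.05, beside 3.3% and 11.6% of all genes. The values of the groups then did not overlap for 10 genes, beside 25.4% of all genes. The list medians became 0.093 for pro-survival, 0.022 for pro-death, 0.12 for caspase and 0.15 for p53 genes, where they had been 0.17, -0.27, -0.14 and -0.29. Of the 9 genes that passed an unadjusted p of 0.05 in all cultures, 4 did so again in the same direction, and these were Casp2, Bad, Cycs and Casp6, the same 4 that DESeq2 called. For each of these 4 the unadjusted p also stayed at or below 0.05 with any single culture left out. For the other 5 it did not: the highest unadjusted edgeR p was 0.0865 for Bok, 0.139 for Casp8, 0.0711 for Ccng1 and 0.183 for Perp, each without control 3, where the log2 fold changes were -0.42, -0.33, -0.41 and -0.62, and 0.102 for Mdm4 without GDNF 22, where it was 0.41. All 9 genes kept their direction within the cultures with more Xist RNA and within those with more Y-linked RNA. Each kind held 2 controls and 2 GDNF cultures, and controls 3 and 21 fell in different kinds. The genes were chosen by p in these same cultures, so this agreement cannot serve as support for them.

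The direction of the set as a whole depended on how libraries were scaled. Without the composition correction, which shifts the median of all genes from 0.033 to 0.25, 8 genes were higher and 0 lower at an unadjusted p of 0.05 by edgeR, beside 19.9% and 5.13% of all genes. The pro-death and p53 medians were then -0.034 and -0.052 and those of the pro-survival genes and caspases 0.38 and 0.095. The 8 genes were Bcl2, Mcl1, Birc2, Bcl2l11, Apaf1, Casp2, Casp9 and Mdm4. In the deposited TPM, 35 of the 47 genes (74.5%) had the higher mean after GDNF, beside 78.8% of all genes tested, and 17 genes with a lower mean in the edgeR fit had a higher mean TPM. The 9 genes that passed the unadjusted p had the same direction in both.

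Transcript length went with the fold changes of all genes, and the lists differ in length. In 4 equal bins of genes by transcript length, from the shortest to the longest, the median log2 fold change of all genes was -0.31, -0.10, 0.057 and 0.30. The apoptosis and p53 genes had medians of -0.26, -0.43, 0.014 and 0.18 in the same bins, with 10, 14, 13 and 10 genes. In the second bin, from 1632 to 2674 bases, all 14 genes had a lower mean after GDNF. The median length was 3461 bases for pro-survival, 2002 for pro-death, 2595 for caspase and 3099 for p53 genes, beside 2674 for all genes. With a length trend of each culture as an offset, the medians were 0.033, -0.11, -0.090 and -0.21, and that of all genes -0.0068. The difference between the pro-survival and pro-death medians was thus smaller after the offset, and the p53 median remained the lowest. With the offset 1 gene was higher and 7 lower at an unadjusted p of 0.05 by edgeR, beside 6.7% and 9.89% of all genes, and 6 of the 9 named above were among them.

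**Figure D5:**
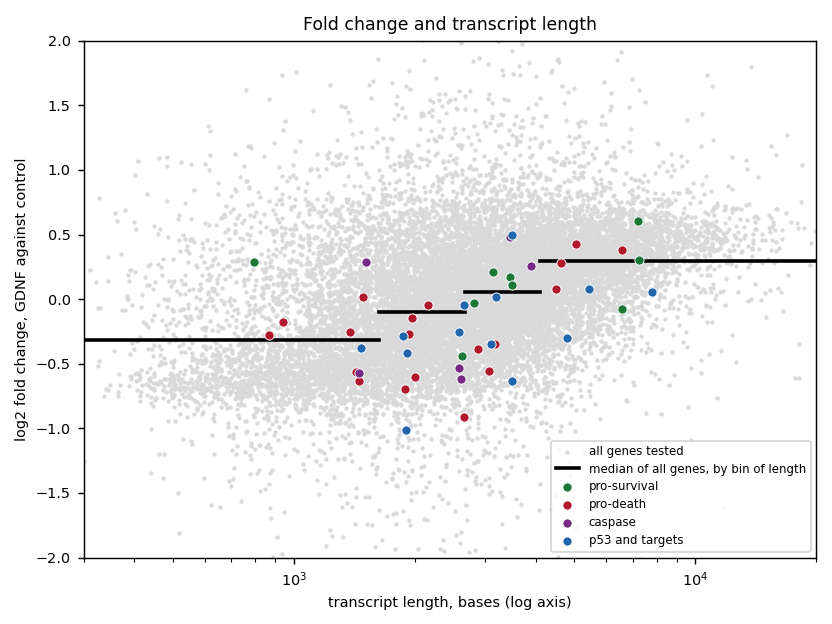
Log2 fold change against transcript length in bases (log axis) for all genes tested (grey, with the extremes of both axes clipped) and for the 47 apoptosis and p53 genes by list. Black bars are the medians of all genes in 4 bins of length, which climb from -0.31 to 0.30, and most coloured points lie near or below the bar of their bin.

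The wider pathways were described with 2 more lists. Of 26 other p53 targets, all tested, 4 were higher and 4 lower at an unadjusted p of 0.05 (30.8%, beside 22.1% of all genes tested), with a median log2 fold change of -0.26. Of 43 other apoptosis and cell death genes 35 were tested, with 3 higher and 5 lower (22.9%) and a median of -0.046. Rrm2b, a ribonucleotide reductase subunit induced by p53, had -0.75 ± 0.22 and Bnip3l (Nix), a mitophagy receptor, -0.82 ± 0.25. The TNF receptor Tnfrsf1b had 0.45 ± 0.14, the DNA repair gene Ddb2 0.53 ± 0.17 and the TWEAK receptor Tnfrsf12a -0.64 ± 0.21. Of these 5 genes, Rrm2b and Tnfrsf12a lay lower and Tnfrsf1b and Ddb2 higher in all GDNF cultures than in all controls, as did 13.2% of all genes in either direction, and Bnip3l overlapped.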

How the data were processed

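RNA was isolated from 8 tubuloid cultures, and libraries from the SMART-Seq v4 kit, which does not mark the strand, were sequenced as 75 bp paired-end reads. The authors mapped the reads to mm10 (GRCm38) with STAR, and featureCounts and DESeq2 are also named in the submitters' processing notes. Versions, the strand setting and the handling of multi-mapping reads are not given in the sources used here. The authors deposited whole-number counts per RefSeq transcript without normalization, with a read that fits several transcripts of a gene in each of them. The deposited FPKM values are those counts scaled to transcript length and to the total of the table by the authors, and served only to obtain transcript lengths. The deposited TPM values, also from the authors, add up to 1 shared total in all cultures.

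The counts of a symbol's transcripts were added up. The test was that of edgeR 4.0.16 run in R 4.3.3 (TMM, filterByExpr, glmQLFit and glmQLFTest, no covariate, Benjamini-Hochberg adjustment over 16557 genes). Groups and culture numbers come from the titles. CPM values use TMM-scaled library sizes, and log2 CPM a prior count of 1. The common biological coefficient of variation was 36.8%, so that spread between cultures and not counting error limited the precision of all genes beyond a few counts. Coordinates are those of RefSeq on GRCm38. The steps were tested on simulated counts, in which DESeq2 gave a larger share of false calls than edgeR, above its nominal rate, and edgeR missed most of the smaller differences put in. Those counts were drawn with edgeR's own spread estimates and held neither the length trend nor the layout among the controls. They therefore do not give the share of false calls in these data. Alternatives used DESeq2 1.42.0, limma 3.58.1, other scalings, filters and dispersions, 1 transcript per gene, a term for Xist or Y-linked RNA, a spline of transcript length with 5 degrees of freedom as an offset, and each culture left out. Plots used matplotlib 3.10.9, and summaries pandas 2.3.3 and NumPy 2.4.6, in Python 3.11.15.

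The genes and lists were chosen with earlier results of these data known. Values in every culture are given for genes with an unadjusted edgeR p of 0.05 or less, the gene with the highest TPM of each list, Trp53, Mdm2 and Cdkn1a, and genes with 3 or fewer counts in a culture. Outside the 48 genes, those among the 6 with the smallest p are named, except 1 that is not reported here. Single-culture values of Bcl2, Bcl2l1, Pmaip1, Fadd and Casp12, and the value of Pidd1, were added after they were seen. Which cultures shared a sequencing lane is not given in the sources used here.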

Additional observations from a re-analysis of the deposited data

Results flagged for a closer look

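In each group of 4 cultures, the gap between an extreme culture and its nearest neighbour was divided by the range of the group and set against Dixon's critical value for 4 values. Of 94 groups examined, 5 passed, where chance gives about 4.7. Bik in GDNF culture 6 was at 22.6 CPM while the other GDNF cultures had 11.6 to 12.4 CPM. Bbc3 in control culture 3 was at 16.5 CPM, with the other controls at 8.04 to 8.70 CPM. Tnfrsf1a in GDNF culture 17 was at 79.0 CPM, with the others at 69.6 to 71.0 CPM, and Tradd in GDNF culture 6 at 23.0 CPM, with the others at 14.8 to 16.1 CPM. Sesn1 in control culture 14 was at 56.2 CPM, with the other controls at 27.8 to 32.6 CPM. None of the 5 genes reached an unadjusted edgeR p of 0.05 between the groups.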

How the results depend on the processing

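The groups share no culture numbers. The labels name no pairs of control and GDNF cultures, so no paired analysis was run. A pairing by animal or preparation that the labels do not name would not be taken into account by the test used. At an adjusted p of 0.05 edgeR and limma-voom called 0 genes under every alternative fitted, and DESeq2 called 1346 genes, 4 of them among the 47 tested here; at an adjusted p of 0.1 edgeR called 0 and DESeq2 2364, with 7 of the 47. The number higher at an unadjusted p of 0.05 was 8 with library size only (19.9% of all genes) and 1 with the length offset (6.7% of all genes). It was 5 with limma-voom and 1 to 4 with each culture left out (4 without GDNF 6). The number lower was 0 with library size only (5.13% of all genes) and 3 without control cultures 3 and 21 (11.6% of all genes). It was 3 with limma-voom and 3 to 11 with each culture left out (3 without control 3, 11 without control 14). Groups did not overlap for 10 genes without controls 3 and 21 (25.4% of all genes), and for 4 to 11 with each culture left out (11 without GDNF 6). The cause of these moves was not tested, and the fits with cultures left out also rest on fewer cultures. For limma-voom and for the fits with 1 culture left out, the share over all genes was not taken. Their counts therefore have no background and are no result about these genes.

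The pro-survival median was 0.38 with library size only, 0.033 with the length offset and 0.080 to 0.24 with each culture left out. The caspase median was 0.095 with library size only, 0.12 without controls 3 and 21 and -0.22 to -0.010 with each culture left out. Those of the pro-death and p53 genes lay between -0.41 and -0.16 and between -0.42 and -0.072 with each culture left out. TPM summed over transcripts gave 105.7 for Casp8, 356.3 for Cdkn1a, 144.5 for Trp53 and 172.8 for Mdm2.

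Of the 47 genes, 24 kept the sign of their log2 fold change under all alternatives and 23 did not, none of the latter at an unadjusted p of 0.05 with all cultures. Without controls 3 and 21 (chosen after the data were seen) the values of opposite sign were 0.41 for Bcl2l1, -0.0025 for Bcl2l2, 0.037 for Birc3, 0.027 for Bax, 0.23 for Bid, 0.091 for Bik, 0.14 for Bbc3, 0.35 for Pmaip1, -0.25 for Fas, 0.063 for Tnfrsf10b, 0.18 for Trp53, 0.044 for Mdm2, 0.40 for Cdkn1a, -0.27 for Sesn1, 0.18 for Sesn2 and 0.17 for Aen. With the length offset they were -0.060 for Cflar, 0.11 for Bax, 0.24 for Bik, 0.029 for Tnfrsf1a, -0.11 for Ripk1, -0.045 for Sesn1, -0.35 for Zmat3 and -0.21 for Trp53inp1. With library size only they were 0.14 for Xiap, 0.19 for Birc3, 0.091 for Bik, 0.11 for Bbc3, 0.17 for Tnfrsf1a and 0.19 for Sesn2. With limma-voom they were 0.016 for Birc3, 0.050 for Bbc3, -0.14 for Fas and 0.028 for Sesn2. The rest were 0.0012 for Birc3 with upper-quartile factors, -0.00022 for Fas and -0.0034 for Sesn1 with DESeq2 size factors, -0.00026 for Fas and -0.0034 for Sesn1 with DESeq2, and -0.0067 for Fas with 1 transcript per gene. With each culture left out, the ranges that crossed 0 were -0.24 to 0.78 for Bcl2a1d, -0.081 to 0.016 for Birc3, -0.46 to 0.23 for Bik, -0.26 to 0.17 for Bbc3, -0.21 to 0.16 for Fas, -0.15 to 0.045 for Tnfrsf1a, -0.036 to 0.15 for Ripk1, -0.14 to 0.31 for Sesn1, -0.18 to 0.11 for Sesn2 and -0.093 to 0.13 for Zmat3.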
